A study of Mus musculus with 3 samples.

Results

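The genes described here are the carriers that move neurotransmitters and amino acids across the plasma membrane or into synaptic vesicles, taken from the solute carrier families Slc1, Slc6, Slc7, Slc17, Slc18, Slc32 and Slc38. A gene was taken when its symbol belongs to one of these families and the whole matrix held at least 10 of its unique molecular identifiers (UMIs, tags that let each captured RNA molecule be counted once). Of 28001 features, 68 symbols belong to the families and 46 reached that count, with 84771 UMIs together. The other 22 stayed under it: 16 had 0 UMIs and 6 had 1 to 9. One of the 46, Slc7a6os, is not a carrier but a gene next to Slc7a6 whose symbol starts the same way, and it is counted here only because the rule takes it.

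The cells came from the nucleus accumbens, a ventral part of the striatum, of Thy1::ChR2 mice, which carry the light-gated channel ChR2 under the neuronal promoter Thy1. In all 3 samples, which form a single group, FLiCRE labelling was done while ChR2 was stimulated with light in this region, and tissue was dissected from 400 um coronal slices. FLiCRE is a reporter system that turns calcium entry coinciding with light into transcription. There is no unstimulated group. The labels give no ages and do not say whether each sample was 1 animal. Classes of cells were therefore compared within the same libraries, and p-values cover the spread between these libraries, which may be technical. Libraries were made with a droplet kit (10x Genomics, 3′ chemistry v2) that tags the 3′ end of each transcript.

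Glutamate and GABA released at synapses are cleared by sodium-coupled carriers: the Slc1 family takes up glutamate, and part of the Slc6 family takes up GABA, glycine, monoamines, taurine, creatine and proline. Before release, vesicles are filled by Slc17 carriers with glutamate, by Slc32a1 with GABA or glycine, and by Slc18 carriers with monoamines or acetylcholine. Slc7 and Slc38 carriers supply the amino acids themselves, among them the glutamine that astrocytes pass to neurons and the large neutral and cationic amino acids that cross the endothelium of brain vessels.

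The 3 libraries kept 2350, 6079 and 1862 cells after filtering, with 2868822, 15625072 and 6440580 UMIs and a median of 992.5, 2123 and 2705 UMIs per cell. Cells were sorted into classes by markers that hold none of the carriers, which placed 8691 of 10291 cells (84.5%). Doublets were not removed, but the gate left out cells in which markers of a second class were also frequent. Neurons numbered 822, 3537 and 885 in libraries 1 to 3, astrocytes 305, 414 and 186, oligodendrocytes 419, 530 and 288, and endothelial cells 140, 172 and 85. Oligodendrocyte precursors (27, 39 and 18 cells), microglia, macrophages and mural cells also had 3 usable libraries, while fibroblasts (14 and 23 cells) and T cells (16 and 23) had 10 or more cells in libraries 1 and 2 only. Among neurons, spiny projection neurons with Drd1 markers (202, 1232 and 258 cells) and with Drd2 markers (235, 795 and 251), glutamatergic neurons (32, 40 and 37) were separated. Sst-Npy interneurons had 35 and 12 cells in libraries 2 and 3 and Pvalb interneurons 27 in library 2, and no cell passed the cholinergic gate. Barcode sequences shared by libraries numbered 13, 7 and 22 for the pairs 1 and 2, 1 and 3, and 2 and 3. Levels are UMIs of a gene per 1000000 UMIs of the class and library (CPM). They are not divided by transcript length, because only the 3′ end was tagged.

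Astrocytes held the largest summed level of the 46 genes, 15389, 8548 and 14723 CPM in libraries 1 to 3, against 2323, 1887 and 2202 CPM in neurons and 888, 1154 and 1088 CPM in oligodendrocytes. Of the 46, 15 had their highest mean in neurons, 8 in astrocytes, 4 in endothelial cells, 4 in fibroblasts and 4 in oligodendrocyte precursors. Oligodendrocytes, microglia and mural cells had 3 each, T cells 2 and macrophages 0. For 26 of them (56.5%) the libraries of the highest class lay above all libraries of the second, including all 4 endothelial genes, 7 of the 8 astrocyte genes and 8 of the 15 neuron genes. Among all 15647 features with at least 10 UMIs this share was 27.1%. None of the 4 genes highest in oligodendrocyte precursors did so.

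**Figure D1:**
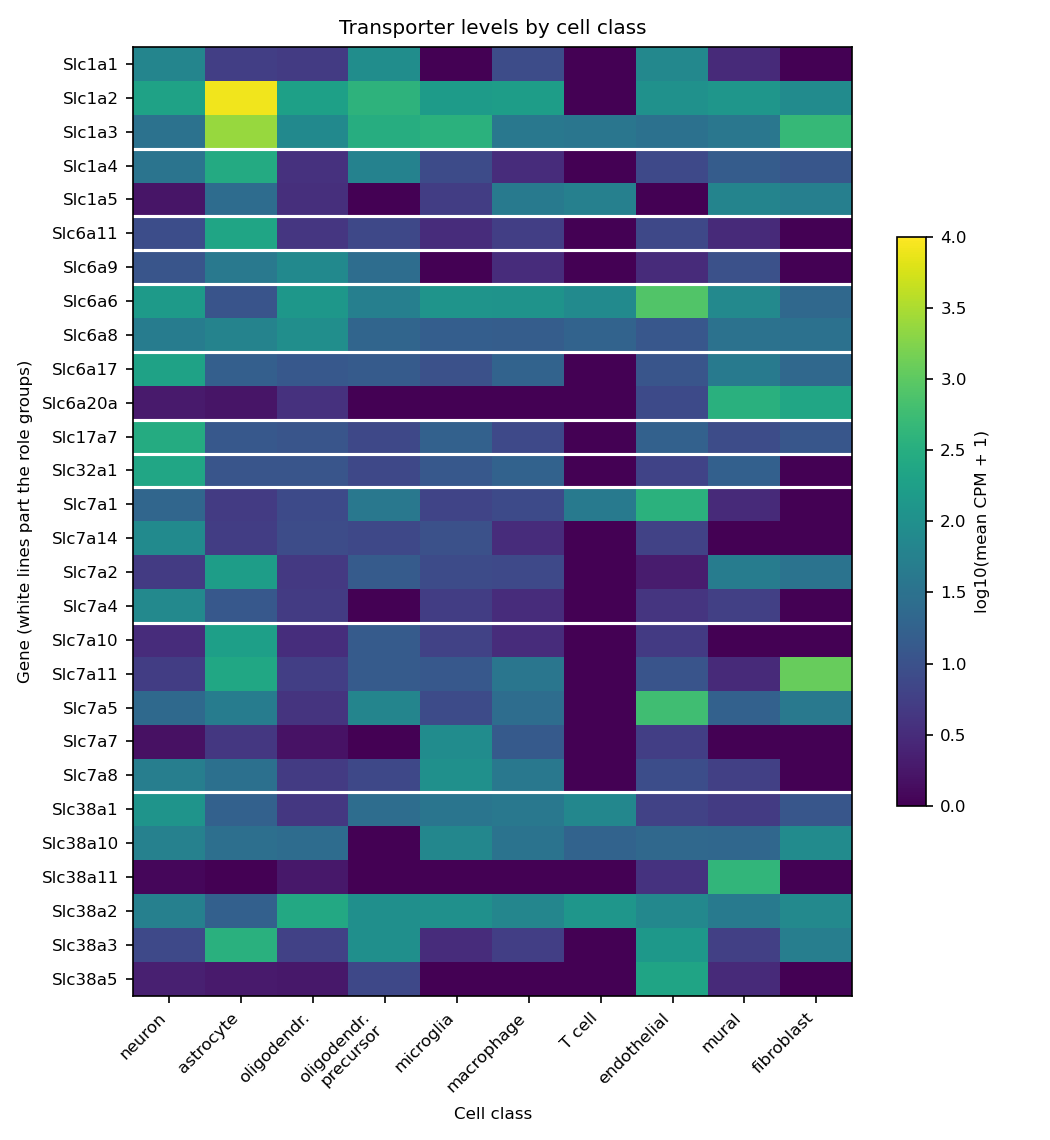
Heat map of 28 carriers (rows, parted by role) that reached a mean of 50 CPM in a main class with 3 libraries, over 10 cell classes (columns). Colour is log10 of the mean CPM plus 1; the brightest cell is Slc1a2 in astrocytes (8251 ± 2939 CPM), and Slc38a11 in mural cells and Slc38a5 in endothelial cells stand alone in their rows.

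Grouped by role, summed glutamate uptake carriers reached 10687 ± 3504 CPM in astrocytes and 302 ± 12.9 CPM in neurons (SD over n = 3 libraries). Vesicular loading carriers reached 531 ± 114 CPM in neurons and between 12.9 and 30.7 CPM in the other classes with 3 libraries. Cationic carriers were highest in endothelial cells (369 ± 107 CPM), and light chains of the heteromeric exchangers in fibroblasts (1205 ± 608 CPM, n = 2 libraries), endothelial cells (630.4 ± 182 CPM) and astrocytes (499 ± 20.3 CPM). The Slc38 sum ranged from 188 CPM in macrophages to 526 CPM in mural cells over the classes with 3 libraries.

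**Figure D2:**
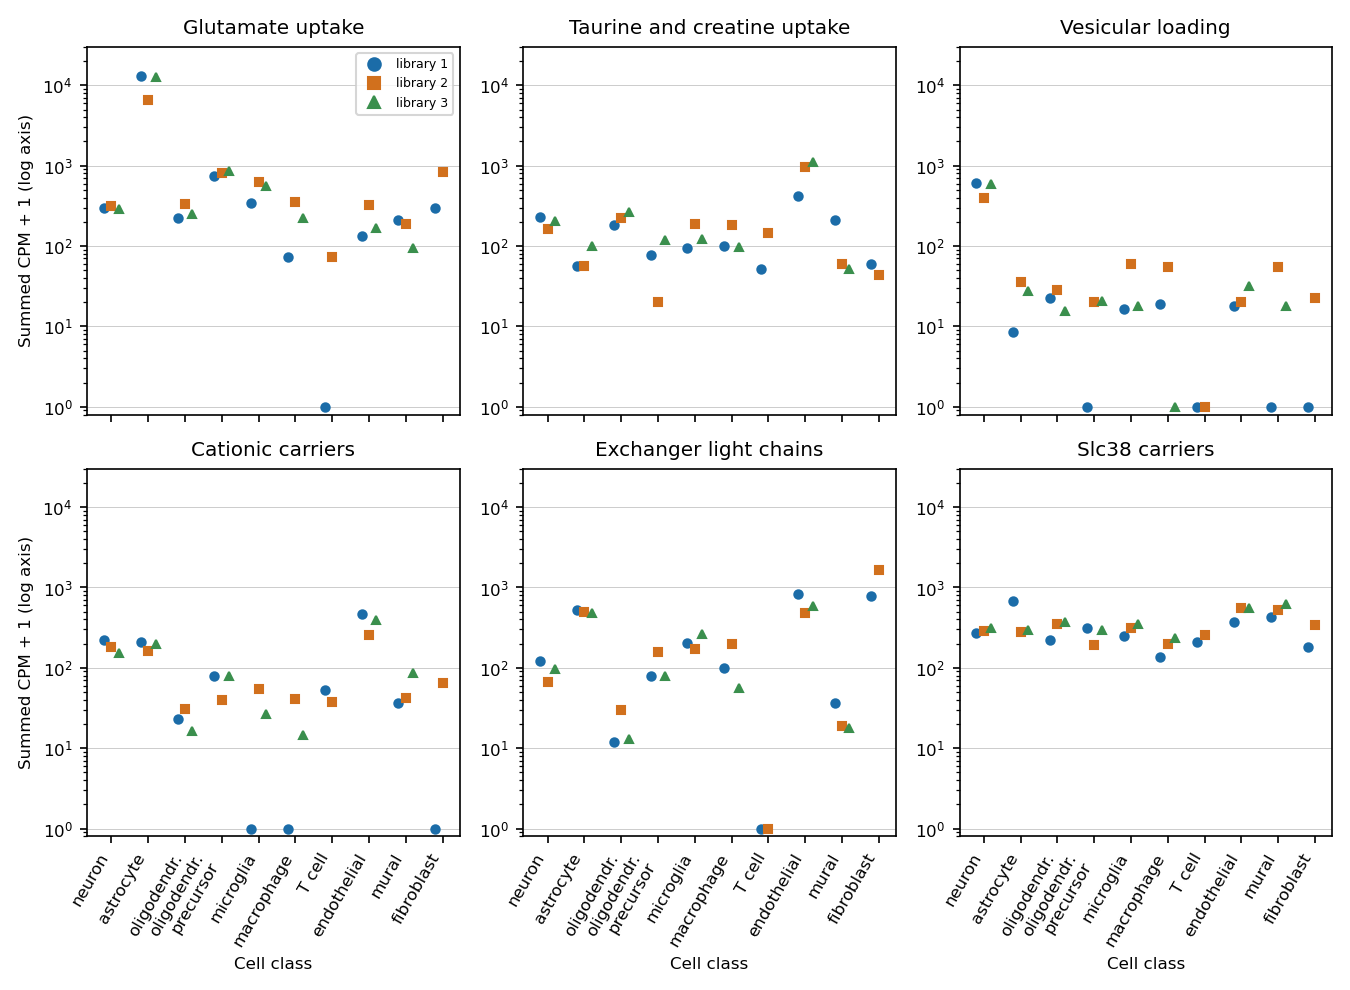
Summed CPM plus 1 (log axis) of 6 role groups in 10 cell classes, with each point a library of a class with at least 10 cells. Glutamate uptake stands out in astrocytes and vesicular loading in neurons, and the Slc38 sums lie close together.

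Tests compared neighbouring classes gene by gene over all genes, with the library as a block, and a change was called at an adjusted p under 0.05. In the main classes 29 of the 46 genes passed the filter on low counts. Genes that are high in 1 class could pass only through that class. Slc38a5 and Slc7a1 passed only through endothelial cells, Slc38a11 through mural cells, Slc6a13 through fibroblasts and Slc7a7 through microglia. Slc6a11 and Slc7a10 passed only through astrocytes, and Slc17a7, Slc32a1, Slc6a17 and Slc7a14 only through neurons. That these genes were tested and called higher there is not independent of that level. Between astrocytes and neurons 13 carriers were higher and 10 lower in astrocytes, where 27.7% and 32.2% of 7170 tested genes were called. The carriers' median log2 fold change was 0.35 against -0.13 over all tested genes. Oligodendrocytes had 3 carriers higher and 13 lower than astrocytes (all genes 17.4% and 22.5%, medians -0.998 and -0.08). Oligodendrocyte precursors had 6 higher and 5 lower than oligodendrocytes (all genes 8.86% and 13.4%, medians 0.04 and -0.31). Microglia had 5 higher and 12 lower than astrocytes (all genes 16.9% and 20.9%, medians -2.32 and -0.26). Between macrophages and microglia 1 carrier was lower in macrophages and 0 were higher, by edgeR and by DESeq2, with 7 and 4 at an unadjusted p under 0.05 (all genes 2.86% higher and 3.22% lower, medians 0.07 and 0.01). Endothelial cells had 6 higher and 13 lower than astrocytes (all genes 20.2% and 21.8%, medians -0.91 and -0.08). Mural cells had 5 higher and 6 lower than endothelial cells (all genes 8.49% and 9.69%, medians -0.57 and -0.07). Fibroblasts had 3 higher and 1 lower than mural cells in 2 libraries (all genes 1.56% and 2.18%, medians -0.43 and -0.31). Because several comparisons share a class, they are not independent of each other. Log2 fold changes are those of the fit, after TMM scaling between classes, and can differ from the ratio of the CPM values printed beside them.

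The 250 bases before a RefSeq start (GRCm38.p6, the assembly of mm10) are shown for 4 genes whose levels set classes apart: Slc1a3 and Slc7a11, both high in astrocytes and in fibroblasts, Slc17a7 of glutamatergic neurons and Slc38a11 of mural cells. The Slc7a11 window lies inside the RefSeq span of its gene, 50364936 to 50499087, so the start used for it is not the outermost one. Capitals mark matches, on either strand, to 4 searched motifs: the GC box, the TATA box, the C/EBP-ATF response element and the antioxidant response core, whose letters follow below the sequences.

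Slc1a3, chr15:8710808-8711057, minus strand: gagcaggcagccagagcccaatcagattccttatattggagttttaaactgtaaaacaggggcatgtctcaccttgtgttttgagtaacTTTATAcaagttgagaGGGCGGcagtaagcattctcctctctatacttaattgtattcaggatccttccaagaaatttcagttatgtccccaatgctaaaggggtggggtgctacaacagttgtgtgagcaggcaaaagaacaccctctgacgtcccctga

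Slc7a11, chr3:50443614-50443863, minus strand: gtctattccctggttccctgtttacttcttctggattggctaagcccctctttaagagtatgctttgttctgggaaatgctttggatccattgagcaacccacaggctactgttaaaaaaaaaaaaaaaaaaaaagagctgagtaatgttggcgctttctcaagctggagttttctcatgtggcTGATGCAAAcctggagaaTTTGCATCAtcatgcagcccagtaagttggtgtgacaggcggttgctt

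Slc17a7, chr7:45163671-45163920, plus strand: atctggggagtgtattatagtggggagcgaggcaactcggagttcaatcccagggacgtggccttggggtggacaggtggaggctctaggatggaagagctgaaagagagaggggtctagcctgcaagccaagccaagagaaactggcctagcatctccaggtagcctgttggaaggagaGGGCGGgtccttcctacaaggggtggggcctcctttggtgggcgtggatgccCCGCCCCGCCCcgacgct

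Slc38a11, chr2:65364027-65364276, minus strand: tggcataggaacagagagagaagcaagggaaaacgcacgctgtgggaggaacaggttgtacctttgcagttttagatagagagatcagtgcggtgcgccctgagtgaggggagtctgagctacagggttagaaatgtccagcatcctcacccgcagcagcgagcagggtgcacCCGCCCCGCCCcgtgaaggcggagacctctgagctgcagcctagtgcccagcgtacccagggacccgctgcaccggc

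The Slc7a11 window held 2 C/EBP-ATF elements on opposite strands, which began 66 and 48 bases before the start used for this gene. This element, searched as TGATGNAAN, stood in 3.44% of the 32851 promoters of the table and in 2 of the 33 carriers with an entry there (Slc7a11 and Slc7a7). The Slc1a3 window held 1 GC box and 1 TATA box, at 145 and 161 bases before the start. The GC box, searched as GGGCGG, stood in 26 of the 33 carriers and in 32.7% of all promoters, and the box of the second kind, searched as TATAAA, in 3 of the 33 and in 12.4%. The Slc17a7 window held 3 GC boxes, and the Slc38a11 window held 2. The antioxidant response core, searched as TGACNNNGC, was in none of the 4 windows, in 7 of the 33 carriers and in 10.2% of all promoters. These are matches of letters only.

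Transcripts of the glutamate uptake carriers were most abundant in astrocytes. Slc1a2, the main glutamate carrier of astrocytes, reached 10032, 4859 and 9860.4 CPM in astrocytes of libraries 1 to 3 and 197, 209.9 and 198 CPM in neurons (log2 fold change 5.75, SE 0.35, adjusted p = 8.29e-17). The groups did not overlap, and library 2 held the lowest astrocyte level. Slc1a3, the second astrocyte glutamate carrier (GLAST), reached 2848, 1783 and 2663 CPM in astrocytes against 30.2, 36.6 and 25.6 CPM in neurons (log2 fold change 6.68, SE 0.35, adjusted p = 1.02e-22), again without overlap and with library 2 lowest. The neuronal carrier Slc1a1 went the other way, with 67.8, 66.9 and 63.4 CPM in neurons and 3.78, 4.05 and 5.63 CPM in astrocytes (log2 fold change -3.58, SE 0.44, adjusted p = 2.19e-10). Slc1a1 was also present in oligodendrocyte precursors (116, 58.1 and 97.3 CPM) and endothelial cells (39.1, 97.8 and 80.6 CPM), and the libraries of these 3 classes overlapped. It was higher in endothelial cells than in astrocytes (log2 fold change 3.87, SE 0.49, adjusted p = 8.58e-10) and lower in mural than in endothelial cells (log2 fold change -4.65, SE 0.89, adjusted p = 3.37e-05). Slc1a6, which the cerebellum is known for, had 75 UMIs in 72 cells and was not tested.

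Slc1a3 also differed between classes other than astrocytes. Slc1a3 reached 294, 376 and 387 CPM in microglia and 8.96, 67.2 and 41.1 CPM in macrophages, and was the 1 carrier that was lower in macrophages (log2 fold change -3.09, SE 0.47, adjusted p = 3.19e-06). The 9 astrocyte markers summed to 124 to 382 CPM in microglia and 161 to 457 CPM in macrophages, with all 9 detected in both classes. In fibroblasts Slc1a3 reached 238 and 722 CPM in libraries 1 and 2 against 35.2, 59.5 and 16.9 CPM in mural cells of libraries 1 to 3 (log2 fold change 3.41, SE 0.56, adjusted p = 2.31e-05). The call was lost without library 2. There the astrocyte markers summed to 1013 to 1274 CPM (8 of 9 detected, Ntsr2 at 0) against 228 to 435 CPM in mural cells; their part in the result was not tested. Oligodendrocyte precursors held 387, 252 and 292 CPM of Slc1a3 and 232, 464 and 447 CPM of Slc1a2, against 65.3, 104 and 67.7 and 155, 217 and 183 CPM in oligodendrocytes. The Slc1a3 difference passed the test (log2 fold change 1.20, SE 0.39, adjusted p = 0.021). It did not pass without library 1 or library 3, with cells of at least 1000 UMIs, with a stricter gate, without the block or without the filter. The Slc1a2 difference was not called. Astrocyte markers summed to 506 to 890.2 CPM in precursors (8 of 9 detected, Gja1 at 0) and 353 to 556 CPM in oligodendrocytes (9 of 9), and their part was not tested. The range of Slc1a2 in macrophages (53.8, 269 and 178 CPM) and in microglia (46.4, 257 and 172 CPM) takes in that of neurons, so the neuronal level cannot be set apart from free RNA.

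Glutamatergic neurons differed from spiny neurons in this gene. Slc1a2 reached 789.9, 542 and 359 CPM in glutamatergic neurons and 116, 173 and 159 CPM in spiny neurons (log2 fold change 1.71, SE 0.22, adjusted p = 5.15e-06), without overlap. The astrocyte markers summed to 95.3 to 255 CPM in glutamatergic neurons (8 of 9 detected, F3 at 0) and 128 to 321 CPM in spiny neurons (9 of 9), and their part was not tested. Slc1a3 had 54.5, 32.5 and 37 CPM in glutamatergic and 17.4, 33.8 and 22.3 CPM in spiny neurons and was not called. In Sst-Npy interneurons Slc1a2 had 257 and 193 CPM in libraries 2 and 3, and in Pvalb interneurons 144 CPM (19 UMIs, exact Poisson 95% interval 87 to 226); the interval covers counting error only.

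The remaining Slc1 carriers exchange neutral amino acids such as alanine, serine and glutamine. Slc1a4 had 309.7, 225 and 311 CPM in astrocytes and 36.5, 28.3 and 35.6 CPM in neurons (log2 fold change 3.38, SE 0.29, adjusted p = 2.48e-16), without overlap. It stood at 77.3, 19.4 and 77.8 CPM in oligodendrocyte precursors against 0, 5.68 and 2.57 CPM in oligodendrocytes (log2 fold change 3.20, SE 0.83, adjusted p = 0.00238). The precursor value rests on 7 UMIs, and its call was lost without library 3 or with a stricter gate. Slc1a5 was found in mural cells (35.2, 95.3 and 59.1 CPM), macrophages (17.9, 26.9 and 82.3 CPM) and astrocytes (35.9, 21.3 and 18.3 CPM), and had 0 UMIs in endothelial cells. It was therefore at least 19.2-fold higher in mural cells, counting 3 UMIs over the endothelial class as the limit (edgeR adjusted p = 8.99e-06). It was also higher in astrocytes than in neurons (1.04, 1.09 and 0 CPM; log2 fold change 5.04, SE 0.58, adjusted p = 2.10e-11).

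Of the GABA carriers, Slc6a11 was highest in astrocytes and Slc6a13 in fibroblasts. Slc6a11, the GABA carrier of astrocytes, had 253, 189 and 232 CPM in astrocytes and 7.3, 6.66 and 9.7 CPM in neurons (log2 fold change 5.09, SE 0.36, adjusted p = 6.65e-20). No other main class exceeded 7.89 CPM on average. Its gene lies on chromosome 6 of GRCm38.p6, at 114131241 to 114249886. Slc6a13, a GABA and taurine carrier of the meninges, was the fibroblast form: 596 and 743 CPM in libraries 1 and 2, against 0, 77.4 and 8.44 CPM in mural cells (log2 fold change 3.62, SE 0.67, adjusted p = 0.000127), which DESeq2 did not call. It was also called higher in mural than in endothelial cells by edgeR (not by DESeq2), on 14 mural UMIs that lay in libraries 2 and 3.

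Enzymes and partners that make, break down or pair with what the carriers move were taken from 5 lists with 38 genes. Of 23 tested, 13 were higher and 6 lower in astrocytes than in neurons (all genes 27.7% and 32.2%), 4 and 8 in oligodendrocytes than in astrocytes (17.4% and 22.5%), and 5 and 11 in endothelial cells than in astrocytes (20.2% and 21.8%). Against spiny neurons, 1 of 20 was higher and 5 lower in glutamatergic neurons (all genes 10.7% and 9.15%). The enzymes around GABA and glutamate were read from a list of 11 genes, of which 8 were tested between astrocytes and neurons: 3 were higher and 5 lower in astrocytes. Glul, which makes glutamine from glutamate, was at 1826 ± 308 CPM in astrocytes and 102 ± 21.8 CPM in neurons (log2 fold change 4.58, SE 0.32, adjusted p = 6.36e-17). The GABA-making enzyme Gad2 stood at 30.7 ± 30.1 CPM in astrocytes and 807 ± 158 CPM in neurons (log2 fold change -4.92, SE 0.40, adjusted p = 3.49e-15). Within neurons, Gad2 (log2 fold change -4.74, SE 0.59, adjusted p = 0.00108) and the GABA-degrading enzyme Abat (log2 fold change -2.34, SE 0.37, adjusted p = 7.55e-05) were lower in glutamatergic than in spiny neurons, in 3 of 3 libraries each.

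Of the carriers of glycine, taurine and creatine, the first had its highest mean in oligodendrocytes and the second in endothelial cells. Slc6a9, the glycine carrier of glia, had 102, 59.2 and 76.3 CPM in oligodendrocytes, 17, 46.6 and 57.7 CPM in astrocytes and 9.38, 8.55 and 12.6 CPM in neurons. Astrocytes were above neurons in 3 of 3 libraries (log2 fold change 2.30, SE 0.37, adjusted p = 1.67e-07). Oligodendrocytes were above astrocytes (log2 fold change 0.96, SE 0.34, adjusted p = 0.0199), a call lost with DESeq2, without the block and without library 1. Slc6a5, the glycine carrier of glycinergic neurons, had 0 UMIs. Slc6a6, which takes up taurine, had 402, 947 and 1101 CPM in endothelial cells, 180.4, 110.5 and 163 CPM in neurons, 82.7, 142 and 166 CPM in oligodendrocytes and 0, 17.2 and 12.7 CPM in astrocytes. Astrocytes were below neurons (log2 fold change -3.53, SE 0.47, adjusted p = 3.69e-08). Oligodendrocytes (log2 fold change 3.62, SE 0.47, adjusted p = 5.00e-08), microglia (log2 fold change 3.43, SE 0.57, adjusted p = 5.89e-06) and endothelial cells (log2 fold change 6.03, SE 0.47, adjusted p = 3.08e-13) were above astrocytes. In turn, mural cells (176, 17.9 and 33.8 CPM) were below endothelial cells (log2 fold change -4.47, SE 0.55, adjusted p = 5.05e-08). Library 1 held the lowest endothelial level of Slc6a6, and no library of another class reached it. Slc6a8, the creatine carrier, was more even over 3 classes, at 100.2, 81.1 and 100.3 CPM in oligodendrocytes, 54.8, 38.5 and 85.9 CPM in astrocytes and 46.9, 52.4 and 43.3 CPM in neurons. Oligodendrocytes and astrocytes overlapped, and neither difference between astrocytes and these 2 classes was called. It was lower in endothelial cells (log2 fold change -2.60, SE 0.52, adjusted p = 2.08e-05) and microglia (log2 fold change -2.32, SE 0.66, adjusted p = 0.00334) than in astrocytes. The microglia call was lost without library 3. In oligodendrocyte precursors Slc6a6, Slc6a8 and Slc6a9 were each called lower than in oligodendrocytes, on few precursor UMIs. In libraries 1 to 3 these were 1, 1 and 5 for Slc6a6, 1, 0 and 1 for Slc6a8 and 1, 2 and 0 for Slc6a9. The Slc6a6 call was lost under 3 of 11 alternatives and the Slc6a9 call under 2 of 9. In oligodendrocytes the creatine-making enzymes Gatm (2721 ± 1101 CPM against 149 ± 101 CPM in astrocytes; log2 fold change 4.34, SE 0.31, adjusted p = 8.11e-18) and Gamt (log2 fold change 2.92, SE 0.34, adjusted p = 1.07e-10) were also higher than in astrocytes.

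Of the other Slc6 carriers, 3 had their highest mean over the main classes in neurons and 1 in mural cells. Slc6a17, a neutral amino acid carrier of synaptic vesicles, had 216, 162 and 216 CPM in neurons and 1.89, 23.3 and 21.1 CPM in astrocytes (log2 fold change -3.36, SE 0.38, adjusted p = 9.53e-12). Levels were higher in glutamatergic neurons (463, 217 and 352 CPM; log2 fold change 0.92, SE 0.21, adjusted p = 0.0021) and in Sst-Npy interneurons (289 and 449.8 CPM in libraries 2 and 3; log2 fold change 1.20, SE 0.25, adjusted p = 0.00182) than in spiny neurons (160.5, 151 and 174 CPM). Slc6a7, the brain proline carrier, had 123, 86.7 and 74.1 CPM in glutamatergic and 13.5, 18.7 and 12.6 CPM in spiny neurons (log2 fold change 2.43, SE 0.36, adjusted p = 2.89e-05), without overlap. Slc6a15, a carrier of branched-chain amino acids and proline, had 54.2, 44.5 and 43.7 CPM in neurons and at most 19.5 CPM in a library of any other class. It was too low to be tested across the main classes. Slc6a20a, which carries proline and related imino acids, had 387, 333 and 312 CPM in mural cells, 119 and 339.8 CPM in fibroblasts of libraries 1 and 2 and 16.8, 0 and 3.84 CPM in endothelial cells (log2 fold change 5.82, SE 0.68, adjusted p = 9.84e-10 for mural over endothelial). Mural cells and fibroblasts overlapped in it and the difference was not called. With cells of at least 1000 UMIs the mural mean of Slc6a20a was 251 CPM.

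Vesicular carriers set glutamatergic apart from spiny neurons. Slc17a7, the vesicular glutamate carrier of cortical neurons, reached 2451, 1014 and 1914 CPM in glutamatergic neurons and 11.6, 27.7 and 21.6 CPM in spiny neurons (log2 fold change 6.02, SE 0.29, adjusted p = 1.38e-11). Library 2 was lowest and the groups did not overlap. The glutamatergic gate held 180, 187 and 517 UMIs of Slc17a7 in libraries 1 to 3. Neurons that no subclass gate took held 140, 1050 and 634, so many neurons with Slc17a7 lay outside the gate. Slc32a1, which loads GABA, went the other way, with 0, 27.1 and 3.7 CPM in glutamatergic neurons and 269, 269.8 and 227 CPM in spiny neurons (log2 fold change -4.50, SE 0.44, adjusted p = 7.86e-08). Slc17a6, the carrier typical of subcortical glutamatergic neurons, had 13.6, 97.6 and 59.2 CPM in glutamatergic neurons and 0, 3.21 and 0.601 CPM in spiny neurons (log2 fold change 5.12, SE 0.65, adjusted p = 5.15e-06), on 35 and 20 UMIs. Of its 165 UMIs in 111 cells, 136 were in gated neurons, most of them outside the glutamatergic gate. In all, 8 of 23 tested carriers were higher and 3 lower in glutamatergic than in spiny neurons, against 10.7% and 9.15% of 6581 tested genes (medians 0.54 and -0.03). Carriers high in a single neuron subclass could pass the filter on low counts only through that subclass. Slc17a6, Slc17a7 and Slc6a7 passed it in this way through glutamatergic neurons, so their being tested and called higher is not independent of that level. Slc7a5 and Slc38a2 passed it only through glutamatergic neurons and interneurons, not through spiny neurons, with the same limit. The number of calls depends on which library is left out: without library 1 edgeR called 11, but without library 3 it called 0, and without library 2 it called 3, with 8 and 10 at an unadjusted p under 0.05. The direction of each called carrier stayed the same. Slc6a6 was also lower in glutamatergic neurons (68.1, 65.1 and 118 against 199, 113 and 201 CPM; log2 fold change -0.96, SE 0.26, adjusted p = 0.00955), not with DESeq2 or without the block. Slc32a1 had 333 and 527 CPM in Sst-Npy interneurons of libraries 2 and 3 and was not called against spiny neurons, and 388 CPM (51 UMIs, exact Poisson 95% interval 289 to 509.7) in Pvalb interneurons.

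Sst-Npy interneurons had 5 of 23 tested carriers higher and 1 lower than spiny neurons, where 6.91% and 7.22% of 6581 genes were called (medians 0.78 and -0.06). These 23 passed the same filter, with the same limit. Slc7a3 and Slc7a5 passed it only through Sst-Npy interneurons and glutamatergic neurons, so their calls here are not independent of that level. The higher ones include Slc6a17, and Slc38a1, Slc7a3 and Slc7a5, which follow with their families, and Slc7a4 was the lower one. With library 2 or library 3 left out, 1 library of these interneurons remained and edgeR called 0 carriers, assuming that library to vary like the other groups (7 and 4 at an unadjusted p under 0.05). From the partner lists, Ache, which breaks down acetylcholine, was higher in them (330.4 ± 23.4 CPM against 26.5 ± 1.7 CPM; log2 fold change 3.67, SE 0.34, adjusted p = 1.01e-07), in 2 of 2 libraries.

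**Figure D3:**
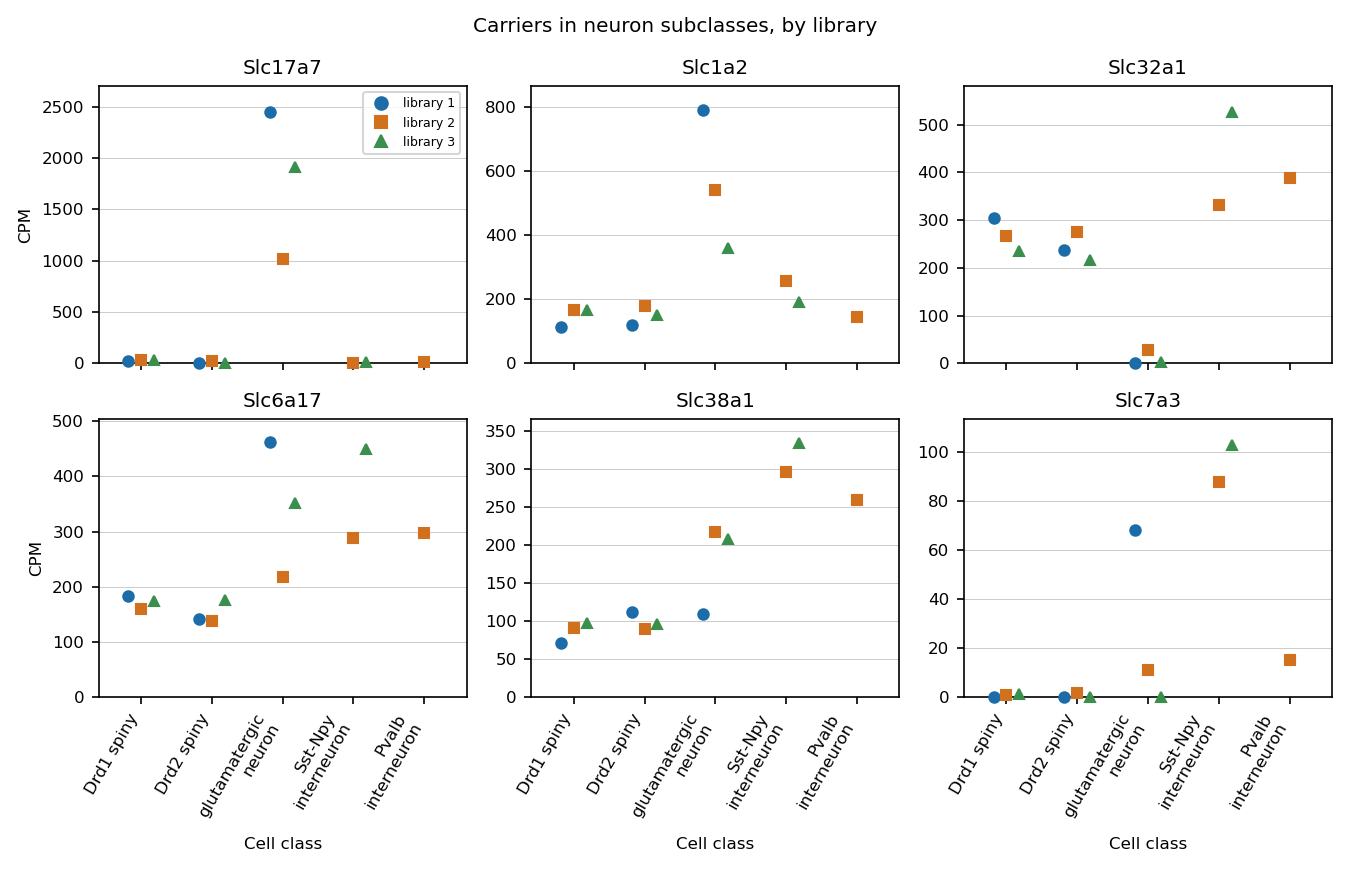
CPM of 6 carriers in 5 neuron subclasses, with each point a library with at least 10 cells of that subclass (Sst-Npy has libraries 2 and 3, Pvalb library 2 only). Slc17a7 and Slc1a2 are highest in glutamatergic neurons, Slc38a1 in the interneurons, and Slc32a1 is near 0 in glutamatergic neurons.

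Few differences in carriers were called between the spiny neuron types. Between Drd1 and Drd2 spiny neurons 1 of 25 tested carriers was called higher and 0 lower, where 1.29% and 1.17% of 8828 genes were called (medians 0.03 and -0.01); 5 had an unadjusted p under 0.05 by edgeR and 1 by DESeq2. The called gene was Slc17a7, with 20.9, 32.7 and 32.7 CPM in Drd1 and 3.6, 19.7 and 8.05 CPM in Drd2 neurons (log2 fold change 0.99, SE 0.25, adjusted p = 0.024). It lost its call with DESeq2, without the filter, without the block (0 carriers called), under both other gates and without library 3. Both levels lie within the range of classes that do not load glutamate, such as endothelial cells (16.8, 6.31 and 26.9 CPM) and microglia (0, 33 and 17.2 CPM), and so cannot be set apart from free RNA. The glutamatergic markers summed to 8.35 to 43.2 CPM in Drd1 neurons (6 of 8 detected, with Neurod1 among those at 0) and 3.6 to 21 CPM in Drd2 neurons (7 of 8), and their part was not tested. Slc32a1 had 305, 266 and 236 CPM in Drd1 and 238, 275 and 217 CPM in Drd2 neurons (log2 fold change 0.03 ± 0.09, SE).

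Carriers of rare neurons came from few cells. Slc17a8, the vesicular glutamate carrier that cholinergic interneurons also use, had 107 UMIs in 28 cells, 105 of them in library 2, and 5 cells held 60.7% of them. Slc18a3, which loads acetylcholine and whose gene lies inside the Chat gene, had 45 UMIs in 18 cells, 43 in library 2; with genes that overlap, reads may be split between them. Of the 9 cells with a UMI of Chat, the acetylcholine-making enzyme, 5 also held Slc18a3 (19 UMIs) and 5 held Slc17a8 (52 UMIs). Slc18a2, which loads monoamines, had 11 UMIs in 9 cells. The plasma membrane monoamine carriers were scarcely detected: Slc6a2 and Slc6a4 had 0 UMIs and the dopamine carrier Slc6a3 had 5. Slc17a5, a lysosomal carrier of sialic acid, stood between 2.81 and 16.3 CPM on average in the main classes with 3 libraries. Within neurons it reached 26.6 CPM on average in glutamatergic neurons. Slc17a9, a vesicular nucleotide carrier, had 22 UMIs in 22 cells.

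The heteromeric exchangers pair a light chain of the Slc7 family with the heavy chain Slc3a2, and their light chains differed by class. Slc7a11 (xCT), which exchanges cystine for glutamate, had 272, 216 and 227 CPM in astrocytes and 3.13, 6.46 and 3.23 CPM in neurons (log2 fold change 6.03, SE 0.49, adjusted p = 2.35e-13), without overlap. Fibroblasts held more, 715 and 1614 CPM in libraries 1 and 2, against 0, 5.95 and 0 CPM in mural cells (log2 fold change 8.10, SE 0.98, adjusted p = 3.03e-07). Slc7a10, which carries D-serine and glycine, had 139.8, 239 and 165 CPM in astrocytes and 0, 4.87 and 1.94 CPM in neurons (log2 fold change 6.17, SE 0.41, adjusted p = 8.51e-21). Slc7a5, the large neutral amino acid carrier of the blood-brain barrier, had 809.7, 442 and 553 CPM in endothelial cells, 66.1, 19.2 and 54.9 CPM in astrocytes and 35.2, 5.95 and 8.44 CPM in mural cells. Endothelial cells were above astrocytes (log2 fold change 3.58, SE 0.29, adjusted p = 9.58e-17), and mural were below endothelial cells (log2 fold change -5.84, SE 0.51, adjusted p = 6.61e-15). It was also higher in precursors (77.3, 77.4 and 38.9 CPM, on 2, 4 and 2 UMIs) than in oligodendrocytes (2.18, 3.24 and 3.43 CPM; log2 fold change 3.48, SE 0.77, adjusted p = 0.000291). Glutamatergic (68.1, 32.5 and 40.7 CPM; log2 fold change 1.87, SE 0.54, adjusted p = 0.0162) and Sst-Npy neurons (31.4 and 141 CPM in libraries 2 and 3; log2 fold change 2.89, SE 0.65, adjusted p = 0.00327) both held more than spiny neurons (17.4, 9.63 and 7.82 CPM).

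Microglia held the highest levels of 2 other light chains. Slc7a7, which exports cationic for neutral amino acids, had 77.3, 39.6 and 146 CPM in microglia, 17.9, 20.2 and 0 CPM in macrophages and 5.67, 2.02 and 2.81 CPM in astrocytes (log2 fold change 4.62, SE 0.71, adjusted p = 1.93e-07 for microglia over astrocytes). Slc7a8, a second neutral amino acid exchanger, had 92.7, 125 and 85.9 CPM in microglia, 66.7, 29 and 54.3 CPM in neurons and 37.8, 16.2 and 32.4 CPM in astrocytes (log2 fold change 1.87, SE 0.46, adjusted p = 0.000695), a call lost with DESeq2 and without library 2. With cells of at least 1000 UMIs the microglial mean of Slc7a8 was 70.9 CPM against 101 CPM. Neither differed between macrophages and microglia by the test, although all microglial libraries lay above all macrophage libraries. Slc7a6 reached 15.2 CPM on average in neurons, its highest class. Slc7a6os, whose RefSeq span lies next to that of Slc7a6 without overlap, reached at most 25.9 CPM on average. The heavy chain Slc3a2 had 391, 322 and 468 CPM in endothelial cells, 168, 185 and 238 CPM in astrocytes, 48, 46.2 and 51.4 CPM in neurons and 0, 137 and 118 CPM in mural cells. Slc3a2 was higher in astrocytes than in neurons (log2 fold change 2.32, SE 0.28, adjusted p = 1.76e-10) and in endothelial cells than in astrocytes (log2 fold change 0.83, SE 0.28, adjusted p = 0.0121). It was lower in mural than in endothelial cells (log2 fold change -1.95, SE 0.36, adjusted p = 1.81e-05). The other heavy chain, Slc3a1, reached at most 0.275 CPM in a library of any class. In the list for serine and glycine, which holds 8 genes, 4 of 4 tested were higher in astrocytes than in neurons, where 27.7% of all tested genes were. They include the serine-making enzyme Phgdh (228 ± 66.8 CPM against 8.2 ± 1.53 CPM; log2 fold change 5.06, SE 0.34, adjusted p = 8.89e-21) and the glycine-cleaving enzyme Gldc (126 ± 66.6 CPM against 1.2 ± 0.339 CPM; log2 fold change 6.39, SE 0.43, adjusted p = 1.80e-20).

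Carriers of cationic amino acids such as arginine and lysine differed between classes. Slc7a1 had 464, 221 and 388 CPM in endothelial cells, 0, 6.07 and 5.63 CPM in astrocytes and 0, 5.95 and 0 CPM in mural cells. The endothelial level was above astrocytes (log2 fold change 6.08, SE 0.44, adjusted p = 1.68e-19) and the mural below it (log2 fold change -6.77, SE 0.73, adjusted p = 6.25e-12). Slc7a2 had 191, 131 and 183 CPM in astrocytes, 4.17, 4.77 and 2.91 CPM in neurons and 35.2, 29.8 and 75.9 CPM in mural cells (log2 fold change 5.59, SE 0.40, adjusted p = 5.65e-20 over neurons). It was higher in mural than in endothelial cells (log2 fold change 4.95, SE 1.11, adjusted p = 0.000334), a call lost without library 3. Neurons held Slc7a14, a lysosomal member of the group, at 77.2, 94.1 and 70.8 CPM against 1.89, 8.1 and 2.81 CPM in astrocytes (log2 fold change -3.92, SE 0.47, adjusted p = 8.71e-11). They also held Slc7a4, at 111, 58.6 and 53.7 CPM. Slc7a4 was lower in Sst-Npy interneurons (12.6 and 12.9 CPM in libraries 2 and 3) than in spiny neurons (108, 62.3 and 55.9 CPM; log2 fold change -2.18, SE 0.65, adjusted p = 0.0244), on 3 UMIs and not by DESeq2. Slc7a3, with 97 UMIs in 88 cells in all, was higher in Sst-Npy interneurons, at 87.9 and 103 CPM in libraries 2 and 3 against 0, 1.18 and 0.601 CPM in spiny neurons of libraries 1 to 3 (log2 fold change 6.76, SE 0.92, adjusted p = 1.29e-05). Spiny neurons did not carry it past the filter on low counts, so this call is not independent of the interneuron level.

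The Slc38 carriers move glutamine, alanine and other neutral amino acids, and different members were highest in astrocytes, neurons and oligodendrocytes. Slc38a3, the glutamine carrier by which astrocytes release glutamine, had 597, 211 and 217 CPM in astrocytes and 5.21, 10.3 and 4.53 CPM in neurons (log2 fold change 5.56, SE 0.36, adjusted p = 5.36e-21). Library 1 was the highest and none overlapped. It was also present in endothelial cells (145, 94.7 and 165 CPM), below astrocytes in 3 of 3 libraries (log2 fold change -1.39, SE 0.33, adjusted p = 0.000313), a call lost without library 1. It was higher in precursors (77.3, 96.8 and 117 CPM, on 2, 5 and 6 UMIs) than in oligodendrocytes (6.53, 6.49 and 1.72 CPM; log2 fold change 3.67, SE 0.72, adjusted p = 5.32e-05). Slc38a1, which brings glutamine into neurons, had 107, 108 and 131 CPM in neurons and 35.9, 6.07 and 7.04 CPM in astrocytes (log2 fold change -2.76, SE 0.39, adjusted p = 5.92e-09). It was higher in Sst-Npy interneurons (295 and 334 CPM in libraries 2 and 3; log2 fold change 1.67, SE 0.27, adjusted p = 0.000145) and in glutamatergic neurons (109, 217 and 207 CPM; log2 fold change 0.97, SE 0.23, adjusted p = 0.00431) than in spiny neurons (92.8, 90.0 and 96.2 CPM), the second not without the block. Pvalb interneurons of library 2 held 258 CPM (34 UMIs, exact Poisson 95% interval 179 to 361). Slc38a2, a system A carrier that cells raise when amino acids are short, was highest in oligodendrocytes, at 146, 290.3 and 334 CPM, against 5.67, 17.2 and 23.9 CPM in astrocytes (log2 fold change 4.07, SE 0.35, adjusted p = 1.73e-15). Precursors held 77.3, 77.4 and 136 CPM, on 2, 4 and 7 UMIs (log2 fold change -2.13, SE 0.44, adjusted p = 0.000139). It was lower in astrocytes than in neurons (33.4, 57.9 and 70.2 CPM; log2 fold change -1.49, SE 0.36, adjusted p = 0.000246). It was also higher in glutamatergic (81.7, 75.9 and 126 CPM) than in spiny neurons (17.4, 49.7 and 51.7 CPM; log2 fold change 1.10, SE 0.30, adjusted p = 0.00972), the latter not with DESeq2 or without the block.

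Vessels held 2 carriers of this family, Slc38a5 and Slc38a11, that in a library of the remaining classes reached at most 19.4 and 5.58 CPM. Slc38a5, a glutamine and serine carrier, had 89.3, 299.8 and 257 CPM in endothelial cells, with library 1 lowest, and 0, 0 and 2.81 CPM in astrocytes and 0, 5.95 and 0 CPM in mural cells. Endothelial cells differed from astrocytes (log2 fold change 7.71, SE 0.64, adjusted p = 1.11e-15) and mural from endothelial cells (log2 fold change -6.44, SE 0.85, adjusted p = 1.30e-08). Slc38a11, an orphan member, had 282, 417 and 574 CPM in mural cells, 5.58, 3.16 and 0 CPM in endothelial cells and 0 CPM in astrocytes (log2 fold change 7.17, SE 0.63, adjusted p = 8.16e-14 for mural over endothelial). DESeq2 called neither gene in these comparisons, with the same directions. Each gene passed the filter on low counts only through the class where it was high. Its being tested and called is therefore not independent of that level. The fibroblasts of libraries 1 and 2 had 0 UMIs of Slc38a11. It was at least 8.46-fold lower there than in mural cells, over libraries 1 and 2 of both classes and with 3 UMIs over the class as the limit (edgeR adjusted p = 8.86e-05), also not called by DESeq2 or without library 2. Of 265 Slc38a11 UMIs in 173 cells, 94 lay in cells that no gate took and 3 in gated neurons. Slc38a10 stood at 60.5, 58.8 and 50.5 CPM in neurons and 24.6, 26.3 and 32.4 CPM in astrocytes (log2 fold change -0.71, SE 0.31, adjusted p = 0.0459), a difference that missed the threshold under 8 of 10 alternatives. It was higher in microglia (46.4, 98.9 and 68.7 CPM; log2 fold change 1.35, SE 0.44, adjusted p = 0.01) than in astrocytes, not without the filter. It had 0 UMIs in precursors, a depth that allows no lower bound against the 25.1 ± 9.7 CPM of oligodendrocytes. The test called it lower in precursors, a call lost under 5 of 10 alternatives. Slc38a9, a lysosomal arginine sensor, Slc38a7, a lysosomal glutamine carrier, Slc38a6 and Slc38a4 stayed under 50 CPM on average in each main class with 3 libraries and were not tested across the main classes.

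**Figure D4:**
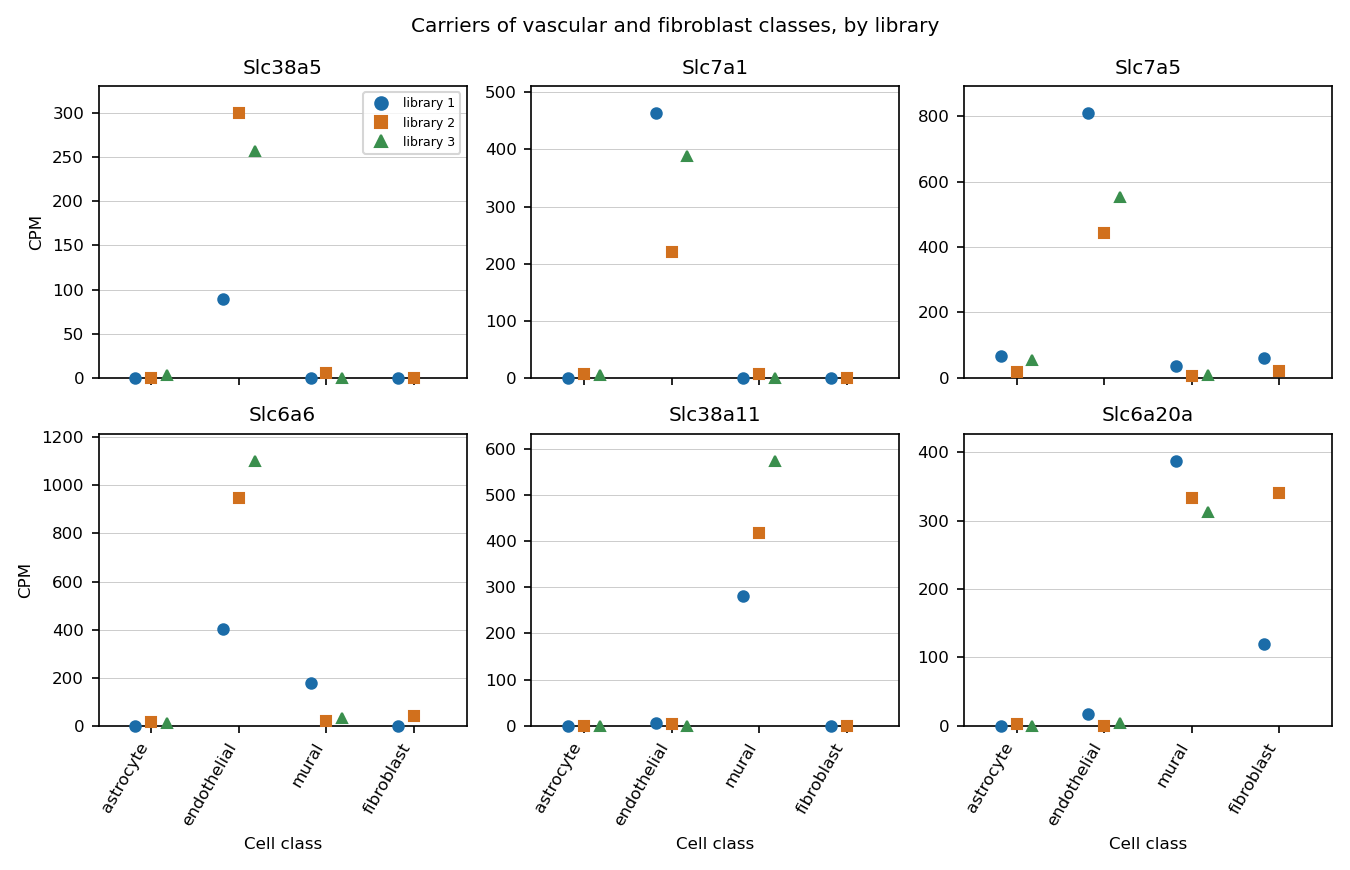
CPM of 6 carriers in astrocytes, endothelial, mural and fibroblast cells, with each point a library of at least 10 cells (fibroblasts have libraries 1 and 2). Slc38a5, Slc7a1, Slc7a5 and Slc6a6 are highest in endothelial cells, Slc38a11 in mural cells, and Slc6a20a is high in both mural cells and fibroblasts.

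**Figure D5:**
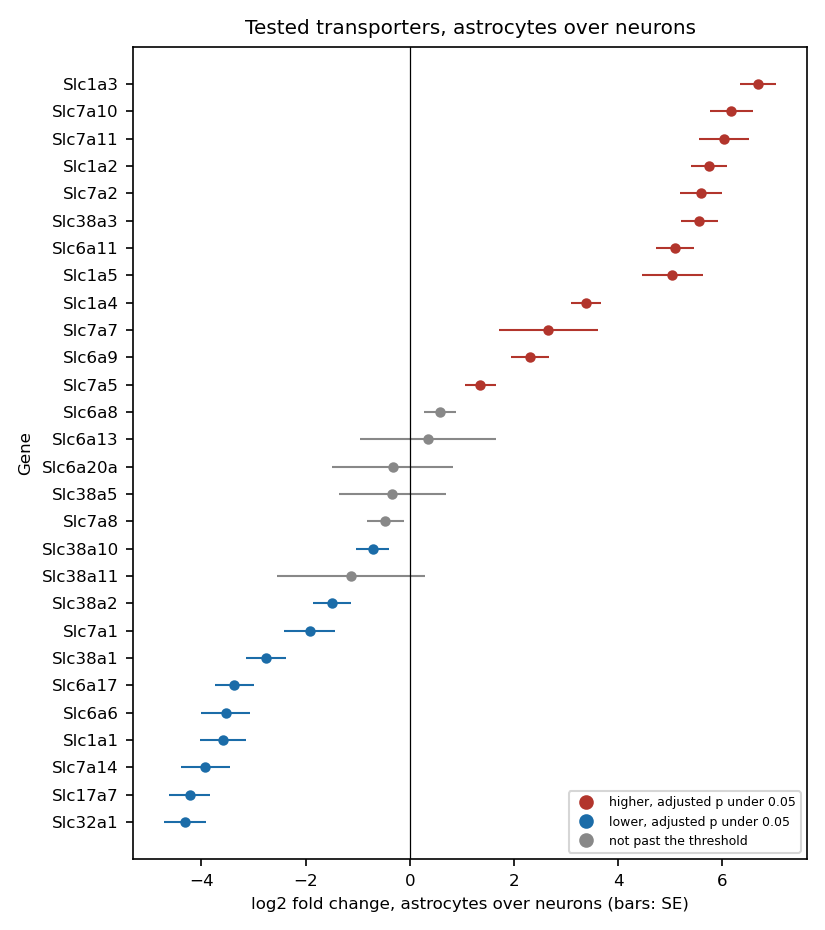
Log2 fold change of astrocytes over neurons for 28 of the 29 tested carriers, with standard errors; red and blue mark an adjusted p under 0.05. 12 red points lie to the right, led by Slc1a3, and 10 blue ones to the left, led by Slc32a1.

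The study's reporter was compared last. Neurons with at least 1 UMI of mCherry, taken as labelled (45, 682 and 98 in libraries 1 to 3), were set against the other gated neurons (777, 2855 and 787). Of 29 tested carriers, 0 were higher and 0 lower, by edgeR and by DESeq2, where 0.0383% and 0.00958% of 10433 genes were called (medians -0.02 and 0.00), and 3 carriers had an unadjusted p under 0.05 by edgeR and 0 by DESeq2. Those 3, named after their values were seen, were Slc38a1 (91.9 against 119.5 CPM; log2 fold change -0.30 ± 0.12, SE), Slc6a6 (-0.26 ± 0.11) and Slc6a8 (-0.41 ± 0.19). Each was lower in 3 of 3 libraries, with an adjusted p of 0.828. Sequencing depth also differed: the median cell held 1497, 3288 and 4611.5 UMIs when labelled and 1021, 2334 and 2412 when not, and its part was not tested. The 4 Sst-Npy markers summed to 1668 to 1844 CPM in labelled and 663 to 954 CPM in unlabelled neurons, all 4 detected in both, and their part was not tested.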

How the data were processed

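The deposited matrix holds UMI counts of 28001 features in 11625 cells, made with Cell Ranger 3.0 on mm10 per the submitters' processing notes. Its barcode suffixes separate 3 libraries, and nothing ties a suffix to a replicate number, so library numbers are only names. Cells under 300 detected genes or over 20% mitochondrial UMIs were dropped. Cell classes were rebuilt here: a cell entered the class with at least 3 of its markers detected (2 for a neuron subclass) when the second-best class had at most 0.5 of the first one's share of markers. Sst-Npy cells needed 10 UMIs and Pvalb cells 5 UMIs over their lists. The gating rule was set after the data were seen. Doublets were not removed, because Scrublet's automatic threshold marked 76 cells (0.739%), 2 of them in library 2; removing the highest scores was an alternative.

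UMIs were summed per class and library with at least 10 cells and tested with edgeR 4.0.16 (quasi-likelihood, TMM scaling, low-count filter, library as a block), with Benjamini-Hochberg adjustment over all genes. The block was used because all classes of a library come from the same sample. Comparisons that share a fit share its estimate of spread. DESeq2 1.42.0 was an alternative. Genes were named when a mean reached 50 CPM in a class with 3 libraries, or as the 10 largest called changes in each direction with the same sign in every library available; for Sst-Npy cells and fibroblasts that is 2 libraries. Members and gene lists were chosen with earlier results of these data known. Promoters come from RefSeq (GRCm38.p6). The fits were tested on simulated data. The values of a few genes in the counts are not reported here.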

Additional observations from a re-analysis of the deposited data

How the results depend on the processing

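Log2 fold changes were recomputed under the alternatives for the carriers called in the main fit only, so gained calls cannot appear among them. Of these 1297 values, 1204 kept their direction and their side of the threshold, 93 kept the direction but lost the call and 0 reversed. With 1 library left out in turn, the number of carriers called ranged from 20 to 22 for astrocytes over neurons, 14 to 15 for oligodendrocytes over astrocytes, 7 to 9 for precursors over oligodendrocytes, 13 to 18 for microglia over astrocytes and 1 to 2 for macrophages over microglia. It ranged from 17 to 19 for endothelial cells over astrocytes, 9 to 11 for mural over endothelial cells, 1 to 4 for fibroblasts over mural cells, 0 to 1 for Drd1 over Drd2 neurons, 0 to 11 for glutamatergic and 0 to 7 for Sst-Npy over spiny neurons, and stayed at 0 for labelled neurons. Fewer samples remain in each of these fits. DESeq2 called 2 carriers for fibroblasts over mural cells, against 4. For Drd1 over Drd2 neurons, DESeq2, no low-count filter, and a gate of 1 marker fewer or more each gave 0 against 1; the cause was not tested.

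Without the replicate block, which here is the library, 0 carriers were called for Drd1 over Drd2 neurons and 8 for glutamatergic over spiny neurons, against 11. Apart from the Drd1 over Drd2 count, no count of carriers moved by over 1.5 times. The few cells of precursors, T cells, fibroblasts and interneurons limit what could be tested.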
